A study of Mus musculus with 20 samples.

Results

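The genes described here are 39 cell cycle and proliferation genes, taken by name from the 54532 entries of a mouse liver expression table: 6 genes of the G1/S transition, 13 of DNA replication and 20 of mitosis. The table held poly(A) RNA of total liver from 4 groups of 5 libraries. Sham_Wt was wild type after sham surgery, Sham_KO was STING knockout after sham surgery, BDL_Wt was wild type after 7 days of bile duct ligation, and BDL_KO was STING knockout after the same ligation. Tying off the bile duct causes bile to back up into the liver and is a surgical model of cholestasis. STING, encoded by Tmem173, is an adaptor protein of the innate immune response to cytosolic DNA. The knockout allele, strain and age of the mice were not given in the sources used here, and mice lacking Abcb4, also named in the design of the study, were not analysed here. The labels do not state whether each of the 5 libraries of a group was 1 animal, and the p-values rest on library-to-library spread, which may be technical. In total liver RNA, fewer cells of a type and less RNA per cell cannot be told apart.

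Most hepatocytes of an adult liver are quiescent and enter the cell cycle after loss or injury of tissue. Cyclins D and E with their kinases lead a cell through G1 and release the E2F factors, which switch on genes of DNA replication such as those of the MCM helicase. Genes of G2 and mitosis follow later, and many are held off in quiescent cells by the DREAM complex, which binds the CHR element of their promoters, and are activated by MuvB complexes with B-Myb and FoxM1, while NF-Y binds CCAAT boxes in the same promoters.

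The promoters of the genes differed by role in the letters they held. RefSeq promoter sequences (build GRCm38.p6, 250 bases before to 50 bases after the start) matched 30 of the 39 genes, with 31 promoters. The CHR letters TTTGAA or TTCGAA, on either strand, were present in 12 of 15 mitosis promoters (80%), 2 of 12 replication promoters (16.7%) and 0 of 4 G1/S promoters. The same letters were present in 19.2% of all 32851 promoters of the table. Letters of an E2F site (TTTGGCGC, TTTCCCGC, TTTGCCGC or TTTCGCGC, on either strand) were present in 6 of 12 replication promoters (50%) and 1 of 15 mitosis promoters (6.67%), against 2.26% of all promoters. CCAAT, on either strand, was present in 13 of 15 mitosis promoters (86.7%) and 9 of 12 replication promoters (75%), against 37.4% of all promoters. A match describes the letters and no binding was measured.

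Below are 150 bases before the start of 4 of these genes, 5′ to 3′ on the strand of the gene, with every match to the 3 motifs in capitals. Cdk1 (chr10:69352913-69353062, minus strand) shows CHR and CCAAT matches of a mitosis gene close together, and is also the 1 mitosis promoter with an E2F match. Ccnb2 (chr9:70421555-70421704, minus strand) shows repeated CCAAT matches, and Mcm6 (chr1:128359706-128359855, minus strand) shows E2F and CCAAT matches of a replication gene. These 3 were chosen after the matches were seen. Birc5 (chr11:117849087-117849236, plus strand) is shown because its level rose after ligation in the knockout and it is a mitosis gene with no match to any of the motifs in this window.
Cdk1: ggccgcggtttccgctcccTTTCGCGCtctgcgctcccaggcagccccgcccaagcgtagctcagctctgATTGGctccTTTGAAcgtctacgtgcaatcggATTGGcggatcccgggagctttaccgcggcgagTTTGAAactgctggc
Ccnb2: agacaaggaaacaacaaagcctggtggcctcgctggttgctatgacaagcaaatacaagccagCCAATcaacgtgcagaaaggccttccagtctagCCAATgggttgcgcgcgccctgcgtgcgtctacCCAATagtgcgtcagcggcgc
Mcm6: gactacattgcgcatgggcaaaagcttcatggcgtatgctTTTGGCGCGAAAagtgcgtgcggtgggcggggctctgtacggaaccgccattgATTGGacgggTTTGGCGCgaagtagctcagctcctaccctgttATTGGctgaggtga
Birc5: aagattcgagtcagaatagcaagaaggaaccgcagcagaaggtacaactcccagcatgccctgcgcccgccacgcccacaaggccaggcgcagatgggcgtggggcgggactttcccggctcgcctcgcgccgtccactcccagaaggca
Positions count from the start of the gene, with -1 as the last base before it, and give the first base of a match. In Cdk1, CHR matches were at -71 and -15, CCAAT matches on the other strand at -80 and -48, and an E2F match at -131. In Ccnb2, CCAAT matches were at -87, -54 and -21, and its CHR matches lie outside the printed stretch, at -167 and 5. In Mcm6, E2F matches were at -110, -106 and -47, the first 2 overlapping on opposite strands, CCAAT matches on the other strand at -57 and -14, and no CHR match was found.

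The libraries held 14940000 to 20900000 fragments assigned to genes, as recovered from the values. Values are FPKM, fragments scaled for transcript length and for a size per library. That size was not the total of assigned fragments, which came to 86.9 to 134.3% of it. Over 14767 genes above 0 in all libraries, the median ratio to the mean library was 1.0065 in each. The deposited values were thus already level between libraries by the median ratio. Tmem173 ranged from 0.843 to 2.34 FPKM in Sham_Wt and 0.588 to 1.06 in Sham_KO, and from 2.598 to 4.605 in BDL_Wt and 0.638 to 2.57 in BDL_KO. Its transcripts were thus present in every library labelled knockout. The knockout mean was lower after both surgeries, with a log2 difference of -0.80 after sham (exact permutation test, two-sided p = 0.01587, n = 5 against 5) and -1.17 after ligation (exact permutation test, two-sided p = 0.007937, n = 5 against 5). The groups overlapped after sham and did not after ligation. Transcripts of 4 Y-linked genes were above 1 FPKM in sum in 2 Sham_Wt, 3 Sham_KO, 3 BDL_Wt and 2 BDL_KO libraries and under that level in the other 10. Libraries BDL_KO_2359 and BDL_KO_2248 stood apart from the other 3 of their group in the levels of cell type markers, as given with the results. The number in the name of BDL_KO_2248 lies outside the run of numbers that the other ligated knockout libraries carry.

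Of the 39 genes, 35 had at least 0.5 FPKM in at least 5 libraries and were tested. Cdc6, Ccnb1, Bub1 and Cdc25c were under this level, and none of them was called in a fit without the filter. Fold changes are differences in mean log2(FPKM + 0.5), which understate the change of low genes, and a gene was called where its Benjamini-Hochberg adjusted p from limma over 14059 genes was under 0.05.

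The cell cycle genes differed widely among the 5 libraries of BDL_KO. The SD of log2(FPKM + 0.5) was wider in BDL_KO than in the other 3 groups for 39 of 39 genes, against 58.55% of all tested genes. The median SD of the 39 genes was 0.20 in Sham_Wt, 0.23 in Sham_KO, 0.22 in BDL_Wt and 1.09 in BDL_KO, where all tested genes had medians of 0.18, 0.21, 0.18 and 0.31. In BDL_KO the median SD was 0.45 for G1/S genes, 0.92 for replication genes and 1.39 for mitosis genes, so the spread was widest for the genes of the last phase.

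**Figure D1:**
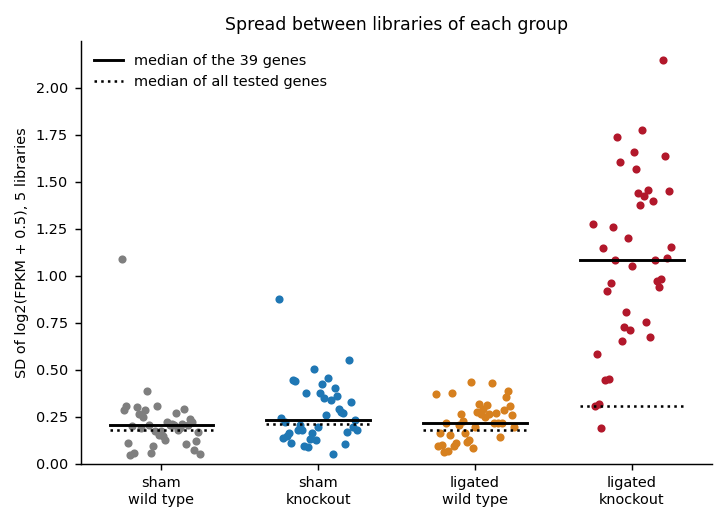
SD of log2(FPKM + 0.5) over the 5 libraries of each group, 1 point per gene for the 39 cell cycle genes (horizontal order within a group has no meaning), with their median (solid line) and the median of all 14059 tested genes (dotted line). The points of the ligated knockout lie far above those of the other groups, with a median of 1.09; the single high point of each sham group is Ccnd1.

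Mki67, which encodes the Ki-67 protein used to mark cycling cells, measured 0.139, 3.60, 0.0365, 1.98 and 6.82 FPKM in BDL_KO libraries BDL_KO_2359, BDL_KO_2365, BDL_KO_2248, BDL_KO_2370 and BDL_KO_2371. These values rest on 21, 672, 5, 364 and 1242 fragments. In BDL_Wt the same gene measured 1.00, 1.03, 1.53, 1.71 and 1.69 FPKM. Libraries BDL_KO_2365, BDL_KO_2370 and BDL_KO_2371 were therefore above every ligated wild-type library and BDL_KO_2359 and BDL_KO_2248 below every one, and the group mean lay at a level that no library had.

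Top2a, the topoisomerase that untangles chromosomes before they separate, measured 0.163, 2.16, 0.0163, 1.604 and 6.88 FPKM in the same order, against 0.705 to 1.59 in BDL_Wt. Ccnb2, a mitotic cyclin, measured 0.479, 9.36, 0.144, 1.11 and 7.22 FPKM, against 1.23 to 2.03. Cdc20, which activates the anaphase-promoting complex, measured 0.179, 13.6, 0.0393, 1.03 and 8.26 FPKM, against 1.04 to 2.38. For Ccnb2 and Cdc20 BDL_KO_2365 was the highest of the 20 and BDL_KO_2370 lay below all of BDL_Wt.

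Mcm6, a subunit of the replicative helicase, measured 1.46, 5.28, 0.960, 8.99 and 20.98 FPKM in BDL_KO, against 2.93 to 4.78 in BDL_Wt. Pcna, the sliding clamp of the replication fork, measured 8.70, 13.5, 11.8, 15.5 and 34.8 FPKM, against 11.4 to 14.2. Mcm7, another helicase subunit, measured 3.15, 5.64, 3.35, 6.43 and 10.4 FPKM, against 3.23 to 4.47. The order of the high libraries was different here, since BDL_KO_2371 and then BDL_KO_2370 had the highest values of all 3 genes.

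For E2f1, Ccne2, Cdt1, Cdc6 and Gmnn, genes of the early phases, BDL_KO_2371 was the highest library of BDL_KO. E2f1, a transcription factor of the G1/S transition, ran from 0.233 to 4.47 FPKM in BDL_KO and 1.01 to 1.68 in BDL_Wt. Ccne2, the second E-type cyclin, ran from 0.21 to 1.52 FPKM in BDL_KO and 0.438 to 0.775 in BDL_Wt. Of the factors that license origins, Cdt1 ran from 0.404 to 4.01 FPKM in BDL_KO and 1.43 to 2.02 in BDL_Wt, and Cdc6, which stayed under the filter, from 0.0281 to 0.603 FPKM in BDL_KO and 0.17 to 0.238 in BDL_Wt. Gmnn encodes geminin, the inhibitor of Cdt1, and was an exception in that its lowest BDL_KO library was BDL_KO_2365, with 3.35 to 7.88 FPKM in BDL_KO and 2.36 to 4.77 in BDL_Wt.

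The other subunits of the MCM helicase, like Mcm6, were highest in BDL_KO_2371. Mcm5 ran from 0.368 to 12.04 FPKM in BDL_KO and 1.36 to 2.46 in BDL_Wt. Mcm3 ran from 0.462 to 6.41 FPKM in BDL_KO and 2.71 to 3.38 in BDL_Wt, Mcm2 from 0.338 to 3.14 FPKM in BDL_KO and 1.18 to 1.47 in BDL_Wt and Mcm4 from 0.502 to 5.21 FPKM in BDL_KO and 1.96 to 3.16 in BDL_Wt. Of the enzymes that supply nucleotides, Rrm2, the regulated subunit of ribonucleotide reductase, ran from 1.56 to 17.7 FPKM in BDL_KO and 1.04 to 2.46 in BDL_Wt. Its partner Rrm1 ran from 0.721 to 4.35 FPKM in BDL_KO and 1.15 to 1.52 in BDL_Wt, and the thymidylate synthase gene Tyms from 0.7 to 3.61 FPKM in BDL_KO and 0.775 to 0.943 in BDL_Wt.

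For most mitosis genes the low ends of BDL_KO were near 0. Cdk1, the kinase that drives entry into mitosis, ran from 0.0744 to 4.85 FPKM in BDL_KO and 0.62 to 1.34 in BDL_Wt. Its cyclin partners Ccna2 and Ccnb1 reached 4.97 and 3.51 FPKM in BDL_KO, and Ccnb1 was listed at 0 in BDL_KO_2248. Plk1, a mitotic kinase, ran from 0.0303 to 4.38 FPKM in BDL_KO and 0.455 to 1.59 in BDL_Wt. Ube2c, which supplies ubiquitin to the anaphase-promoting complex, was also listed at 0 in BDL_KO_2248 and reached 5.25 FPKM in BDL_KO_2371. The kinase Aurkb ran from 0.0453 to 4.71 FPKM in BDL_KO and 0.519 to 1.05 in BDL_Wt, and the checkpoint genes Bub1 and Bub1b reached 1.64 and 2.47 FPKM. The spindle genes Kif11, Tpx2 and Nusap1 reached 3.46, 3.82 and 3.55 FPKM, from minima of 0.107, 0.0314 and 0.0724. Cdc25c, the phosphatase that activates Cdk1, and Cenpa, the centromeric histone, were highest in BDL_KO_2365, at 1.22 and 3.02 FPKM. Aurka, the spindle pole kinase, ran from 1.4 to 2.98 FPKM in Sham_KO and 1.1 to 1.61 in Sham_Wt, and its lowest BDL_KO library was still at 1.21.

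The same libraries were high or low across nearly the whole list. Libraries BDL_KO_2359 and BDL_KO_2248 were both below the other 3 of BDL_KO for 37 of 39 genes (94.9%), against 21.7% of all tested genes. BDL_KO_2371 was above every BDL_Wt library for 38 genes (97.4%, all tested genes 27.0%) and was the highest of all 20 libraries for 31. BDL_KO_2365 was above every BDL_Wt library for 32 genes (82.1%, all tested genes 22.3%), among them 20 of 20 mitosis genes. BDL_KO_2359 was below every BDL_Wt library for 35 genes (89.7%, all tested genes 31.4%) and BDL_KO_2248 for 33 (84.6%, all tested genes 30.5%).

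**Figure D2:**
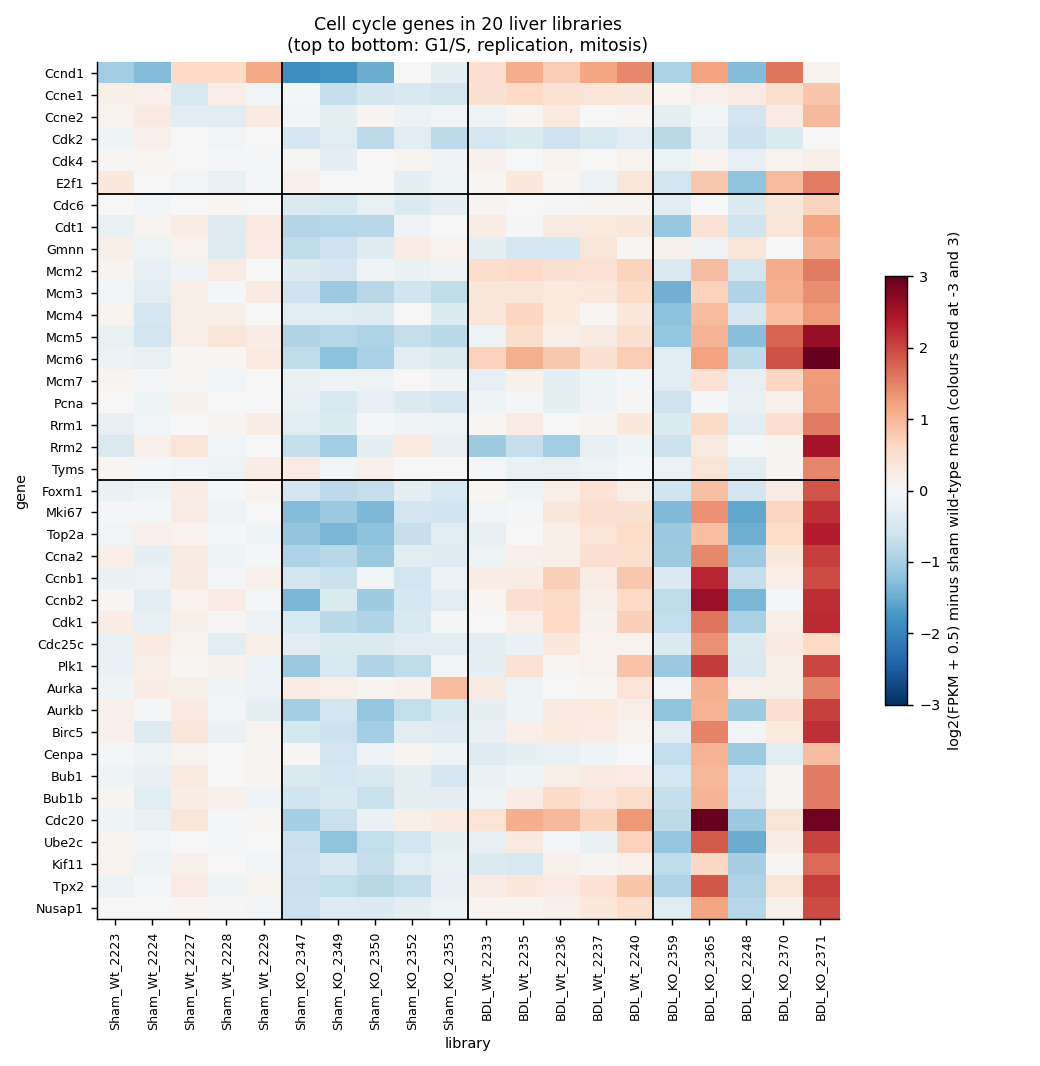
Level of the 39 genes (vertical axis, grouped by role) in the 20 libraries (horizontal axis, grouped by surgery and genotype), as log2(FPKM + 0.5) minus the mean of the sham wild-type libraries; red is higher and blue lower, and the colours end at 3 in either direction. Libraries BDL_KO_2365 and BDL_KO_2371 of the ligated knockout are red in nearly all genes and BDL_KO_2359 and BDL_KO_2248 blue, while the sham knockout libraries are mostly blue.

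BDL_KO_2370 differed from BDL_KO_2365 and BDL_KO_2371 in which genes were high. It was above every BDL_Wt library for 12 of 13 replication genes (92.3%) and for 4 of 20 mitosis genes (20%), against 21.5% of all tested genes. Its mean log2(FPKM + 0.5) was 1.98 over replication genes and 0.44 over mitosis genes, a difference of 1.54. In BDL_KO_2365 the same means were 1.82 and 1.74, a difference of 0.08, and in BDL_KO_2371 they were 2.90 and 2.12, a difference of 0.78. In the 5 BDL_Wt libraries the difference ran from 0.78 to 1.19, so BDL_KO_2370 lay above and BDL_KO_2365 below that range. The low libraries BDL_KO_2248 and BDL_KO_2359 also lay above it, at 1.495 and 1.201, and Sham_KO_2350 reached 1.37.

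**Figure D3:**
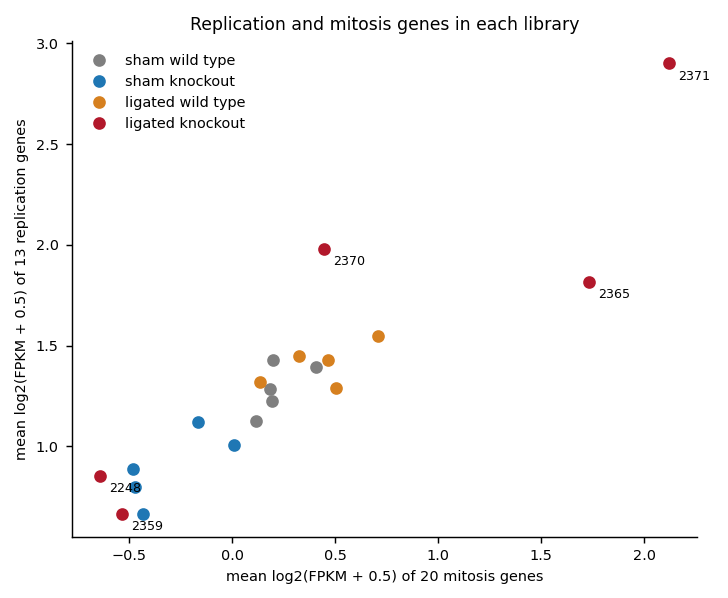
Mean log2(FPKM + 0.5) of the 20 mitosis genes (horizontal axis) and of the 13 replication genes (vertical axis), 1 point per library, coloured by group. BDL_KO_2370 lies high on the replication axis with middling mitosis values, and BDL_KO_2365 lies far to the right, with a mitosis mean of 1.74 and a replication mean of 1.82.

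Markers of several cell types moved with this split. Libraries BDL_KO_2359 and BDL_KO_2248 had summed hepatocyte markers of 65212 and 78120.1 FPKM, against 40477.9 to 46151.5 in the other 3, with 14 of 16 markers higher. Their summed cholangiocyte markers were 89.6 and 69.3 FPKM, against 343.9 to 578.2, with 9 of 9 tested markers lower. Stellate cell and matrix markers summed to 27.37 and 14.53 FPKM, against 101.3 to 131.2, with 11 of 11 lower, and Kupffer cell markers to 235.1 and 127.1, against 417.8 to 598.7, with 7 of 7 lower. For comparison, cholangiocyte markers summed to 34.9 to 39.9 FPKM in Sham_KO and 233.9 to 625.4 in BDL_Wt. Monocyte and macrophage markers summed to 104.9 and 47.8 FPKM in BDL_KO_2359 and BDL_KO_2248, against 201.1 to 297.8, with 10 of 10 lower. Endothelial markers summed to 29.81 and 40.87, against 55.46 to 63.16, with 7 of 8 lower. Neutrophil markers summed to 10.71 and 11.28, against 14.15 to 18.83, with 3 of 4 tested lower. The sums of B and plasma cell markers did not split, at 113.3 and 145.6 against 109.4 to 153, though 5 of 5 tested were lower. No defining marker of these lists was at 0 in all libraries of BDL_KO. Erythroid markers summed to 1313.6 FPKM in BDL_KO_2371, against 178.6 to 314.2 in the other 4, and T and NK cell markers to 4.67, against 0.723 to 3.51. The part of these cell types in the spread of the cell cycle genes was not tested.

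The second pattern was a lower level of cell cycle genes in the sham-operated knockout. The mean FPKM was lower in Sham_KO than in Sham_Wt for 37 of 39 genes. For 17 of 39 genes every Sham_KO library was below every Sham_Wt library, against 4.58% of all tested genes, and for none was every one above, against 3.49%. The 17 were Cdk2, Cdc6, Mcm3, Mcm5, Mcm6, Pcna, Foxm1, Mki67, Top2a, Ccna2, Ccnb2, Aurkb, Bub1, Ube2c, Kif11, Tpx2 and Nusap1, that is 1 of 6 G1/S genes, 5 of 13 replication genes and 11 of 20 mitosis genes. The median log2 change of the 35 tested genes was -0.48, where that of all tested genes was 0.01.

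Mki67 measured 1.05, 1.04, 1.38, 0.926 and 1.10 FPKM in Sham_Wt and 0.150, 0.240, 0.128, 0.575 and 0.557 in Sham_KO. Top2a measured 0.862, 1.08, 1.05, 0.868 and 0.809 FPKM in Sham_Wt and 0.128, 0.0552, 0.107, 0.381 and 0.615 in Sham_KO. Ccnb2 measured 1.195, 0.831, 1.28, 1.48 and 1.11 FPKM in Sham_Wt and 0.141, 0.742, 0.295, 0.664 and 0.813 in Sham_KO. None of these genes overlapped between the groups, and the last 2 Sham_KO libraries, Sham_KO_2352 and Sham_KO_2353, lay nearest to wild type for Mki67 and Top2a. Those 2 were the Sham_KO libraries without Y-linked transcripts.

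Cdk2, a kinase that drives entry into S phase, fell and was the only member called in this comparison, where 2.97% of all tested genes were called, 1.31% higher and 1.66% lower. It measured 2.51, 3.18, 2.82, 2.61 and 2.83 FPKM in Sham_Wt and 1.83, 2.06, 1.39, 2.07 and 1.39 in Sham_KO, with no overlap. Its log2 change was -0.56 ± 0.13 (SE), with a limma adjusted p of 0.028. With limma, the call was lost in 11 of 36 alternatives, with adjusted p from 0.00288 to 0.419 over them, among them the fit without Sham_Wt_2224, Sham_Wt_2227, Sham_Wt_2228 or Sham_Wt_2229 (adjusted p = 0.0704, 0.07, 0.0531 and 0.0641) and without Sham_KO_2350 or Sham_KO_2353 (adjusted p = 0.068 and 0.0732).

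The 4 groups shared 1 estimate of the spread, so the wide spread of BDL_KO entered this comparison as well. With only the 2 sham groups in the fit, 13 of 35 genes were called, all of them lower, where 5.84% of all tested genes were called and 3.46% were called lower. In that fit Mki67 changed by -0.98 ± 0.17 (SE, limma adjusted p = 0.01065), Top2a by -0.97 ± 0.19 (adjusted p = 0.01576) and Pcna by -0.38 ± 0.08 (adjusted p = 0.02348). The other called genes were Cdk2, Mcm3, Mcm5, Mcm6, Foxm1, Ccna2, Aurkb, Ube2c, Kif11 and Tpx2. With all 4 groups in the fit the adjusted p was 0.3311 for Mki67, 0.3156 for Top2a and 0.4045 for Pcna. With all 4 groups but without BDL_KO_2359 and BDL_KO_2248, 6 genes were called, all lower, where 7.4% of all tested genes were called, 3.12% higher and 4.28% lower.

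The lower levels were also present among libraries of like Y-linked transcripts. Among those with them, all 3 Sham_KO libraries were below both Sham_Wt libraries for 28 of 39 genes (71.8%), against 15.6% of all tested genes. Among those without them, both Sham_KO libraries were below all 3 Sham_Wt libraries for 22 of 39 genes (56.4%), against 20.9% of all tested genes. The median difference of the 39 genes was -0.53 in the first set and -0.38 in the second. Summed Kupffer cell markers moved with genotype in sham livers, at 257.1 to 312.6 FPKM in Sham_Wt and 189.1 to 233.7 in Sham_KO, as did summed erythroid markers, at 94.5 to 178.2 and 182.4 to 338.3, and summed cholangiocyte markers, at 26.8 to 33.29 and 34.9 to 39.88. Their part in the lower cell cycle genes was not tested.

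**Figure D4:**
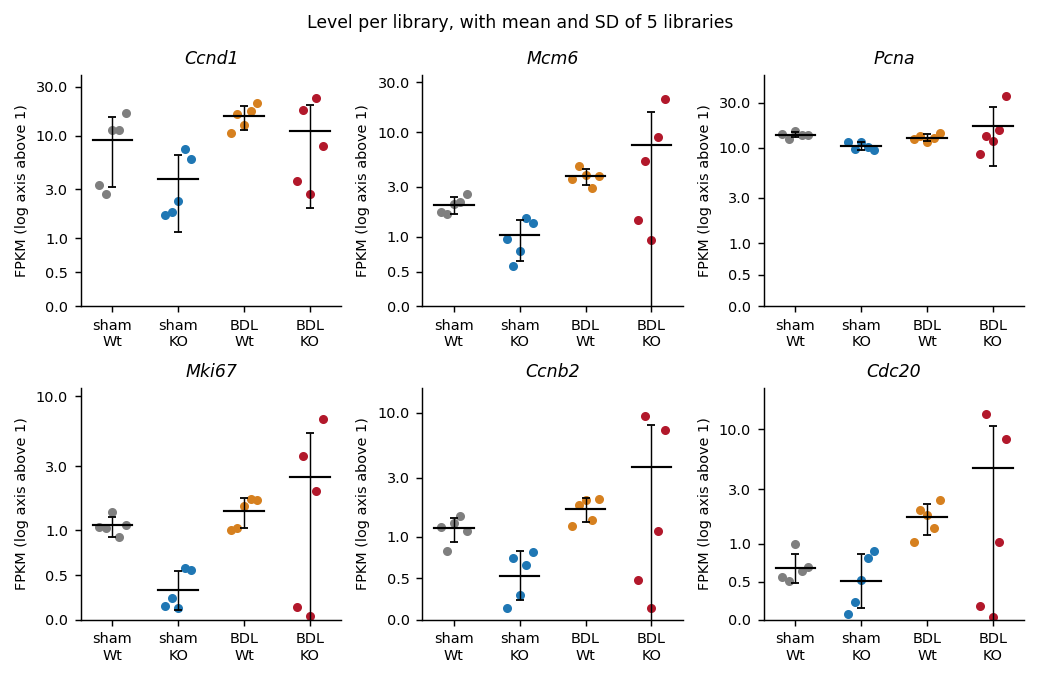
FPKM per library (points) of 6 genes in the 4 groups, with the mean (line) and SD (bar) of 5 libraries; the vertical axis is linear up to 1 FPKM and logarithmic above, and bars that reach below 0 stop at the axis. Sham knockout points lie below all sham wild-type points for Mcm6, Pcna, Mki67 and Ccnb2, and the ligated knockout points spread from near 0.04 to 13.6 FPKM for Cdc20.

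Few of the genes were called for ligation in wild type. With all 4 groups in the fit, and so the wide spread of BDL_KO, 1 of the 35 tested was called higher and 1 lower. Of all tested genes 35.6% were called, 18.1% higher and 17.5% lower. With only Sham_Wt and BDL_Wt in the fit 9 of the 35 were called, where 44.2% of all tested genes were called. The median log2 change was 0.18 for the 35 genes and -0.02 for all tested genes, and 27 of the 35 changes were above 0. For 6 of 39 genes every BDL_Wt library was above every Sham_Wt library (Ccne1, Mcm2, Mcm3, Mcm6, Cdc20 and Nusap1), against 16.6% of all tested genes, and for 1 (Cdk2) every one was below, against 15.1%.

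Ccne1, the E-type cyclin that partners Cdk2 at the G1/S transition, rose in wild type. It measured 0.564, 0.553, 0.179, 0.583 and 0.394 FPKM in Sham_Wt and 0.796, 0.915, 0.772, 0.733 and 0.685 in BDL_Wt, with no overlap. Its log2 change was 0.44 ± 0.16 (SE), with a limma adjusted p of 0.041. With limma, the call was lost in 11 of 35 alternatives (adjusted p from 0.00644 to 0.315), among them the fits without Sham_Wt_2227 or Sham_Wt_2229 (adjusted p = 0.127 and 0.0764) and without BDL_Wt_2233, BDL_Wt_2235, BDL_Wt_2236 or BDL_Wt_2237 (adjusted p = 0.0724, 0.0881, 0.069 and 0.0573).

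Cdk2 fell in wild type, to 1.83, 1.99, 1.64, 1.87 and 2.07 FPKM in BDL_Wt from the sham values above, again with no overlap. This was a log2 change of -0.47 ± 0.13 (SE), with a limma adjusted p of 0.010. When the values were rescaled to TPM its log2 change was -0.23 and its adjusted p 0.411, and when scaled to total fragments these were -0.31 and 0.182.

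Cdk4, the D-cyclin kinase, was nearly level over the groups, at 10.0 ± 0.326 FPKM in Sham_Wt and 10.5 ± 0.460 in BDL_Wt (SD, n = 5 each). Pcna measured 13.8, 12.4, 15.0, 13.8 and 13.8 FPKM in Sham_Wt and 12.5, 13.4, 11.4, 12.7 and 14.2 in BDL_Wt, and these ranges overlapped. Mki67 changed by 0.23 ± 0.51 (SE, limma adjusted p = 0.763) and Top2a by 0.18 ± 0.49 (adjusted p = 0.811), with overlapping groups for both. Cdc20 measured 0.560, 0.502, 0.989, 0.639 and 0.695 FPKM in Sham_Wt and 1.04, 1.99, 1.78, 1.36 and 2.38 in BDL_Wt, without overlap. Its log2 change of 0.89 ± 0.66 (SE) had a limma adjusted p of 0.319 with 4 groups in the fit and 0.001918 with only these 2. In the fit of these 2 groups 9 of 35 genes were called, 7 higher and 2 lower, where 44.2% of all tested genes were called. Without BDL_KO_2359 and BDL_KO_2248, which belong to neither group but enter the shared spread, 5 genes were called, where 42.2% of all tested genes were called.

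Ligation in the knockout gave higher mean levels of 39 of 39 genes. Of the 35 tested, 4 rose and 0 fell, where 25.1% of all tested genes were called and 12.3% were called higher. With voom, at an adjusted p under 0.05, 2 were called higher and 0 lower, where 1637 of 13951 genes were called higher. At an unadjusted limma p under 0.05, 22 were higher and 0 lower. No share of all tested genes at that unadjusted p is given here, so the 22 cannot be set against a background. The median log2 change was 0.81 for the 35 genes and -0.01 for all tested genes. By role, the medians were 0.27 for G1/S genes, 0.60 for replication genes and 1.05 for mitosis genes. For 2 of 39 genes, Ccne1 and Birc5, every BDL_KO library was above every Sham_KO library, against 5.85% of all tested genes, and for none was every one below, against 5.72%.

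Ccne1 rose from 0.406, 0.0801, 0.145, 0.191 and 0.140 FPKM in Sham_KO to 0.476, 0.546, 0.607, 0.823 and 1.16 in BDL_KO. Its log2 change was 0.81 ± 0.16 (SE), with a limma adjusted p of 0.001627. Unlike most of the list, it was above the sham range in libraries BDL_KO_2359 and BDL_KO_2248 too. The levels are low, resting on 38 fragments in the 5 Sham_KO libraries together and 164 in BDL_KO.

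Birc5, which encodes survivin, a subunit of the chromosomal passenger complex and an inhibitor of apoptosis, rose from 0.318, 0.251, 0.0758, 0.430 and 0.403 FPKM in Sham_KO to 0.431, 2.77, 0.604, 0.950 and 4.87 in BDL_KO. Its log2 change was 1.29 ± 0.35 (SE), with a limma adjusted p of 0.011. BDL_KO_2359 exceeded the highest sham library, Sham_KO_2352, by a margin of the third decimal only, so the separation of the groups was narrow. With only the 2 knockout groups in the fit its adjusted p was 0.0797.

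Mcm6 rose from 0.972, 0.579, 0.788, 1.53 and 1.36 FPKM in Sham_KO to the BDL_KO values given above. The log2 change of 1.75 ± 0.49 (SE) had a limma adjusted p of 0.014, and libraries BDL_KO_2359 and BDL_KO_2248 overlapped the sham range. With only the 2 knockout groups in the fit its adjusted p was 0.0959, and with voom on the recovered fragments it was 0.0562.

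Foxm1, the forkhead factor that activates mitotic genes, rose from 0.0751, 0, 0.0224, 0.199 and 0.119 FPKM in Sham_KO to 0.0696, 1.11, 0.0766, 0.523 and 2.67 in BDL_KO. This was a log2 change of 0.95 ± 0.33 (SE), with a limma adjusted p of 0.043. Foxm1 reached 0.5 FPKM only in Sham_Wt_2227, BDL_Wt_2237, BDL_KO_2365, BDL_KO_2370 and BDL_KO_2371. It thus passed the filter only through BDL_KO, the group in which it was called higher. Without the filter its limma adjusted p was 0.0821. The sham values rest on 37 fragments in all, and the call was lost in 22 of 35 alternatives (adjusted p from 0.000154 to 0.389), including those without any of the 5 Sham_KO libraries (adjusted p from 0.0513 to 0.083), without BDL_KO_2365, BDL_KO_2370 or BDL_KO_2371 (0.109, 0.0667 and 0.1), without Sham_Wt_2224, Sham_Wt_2227, Sham_Wt_2228 or Sham_Wt_2229 (0.0508, 0.0507, 0.0521 and 0.0511) and without BDL_Wt_2233, BDL_Wt_2236 or BDL_Wt_2240 (0.0521, 0.0518 and 0.0513).

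With only the 2 knockout groups in the fit, 1 of 35 genes was called, where 12% of all tested genes were called, 6.03% higher and 6.02% lower. Without libraries BDL_KO_2359 and BDL_KO_2248, 31 of 35 were called, all higher, where 37% of all tested genes were called and 18.8% were called higher. Those 2 libraries were also the lowest of their group in nearly all of the genes, so leaving them out raises the group by construction. In that fit Mki67 changed by 2.38 ± 0.27 (SE, limma adjusted p = 7.206e-06) and Mcm6 by 2.81 ± 0.30 (adjusted p = 4.569e-06). Leaving out only BDL_KO_2359 gave 23 genes and leaving out only BDL_KO_2248 gave 24. Over all fits that left out 1 library, 2614 to 4096 of the 14059 tested genes were called in this comparison.

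**Figure D5:**
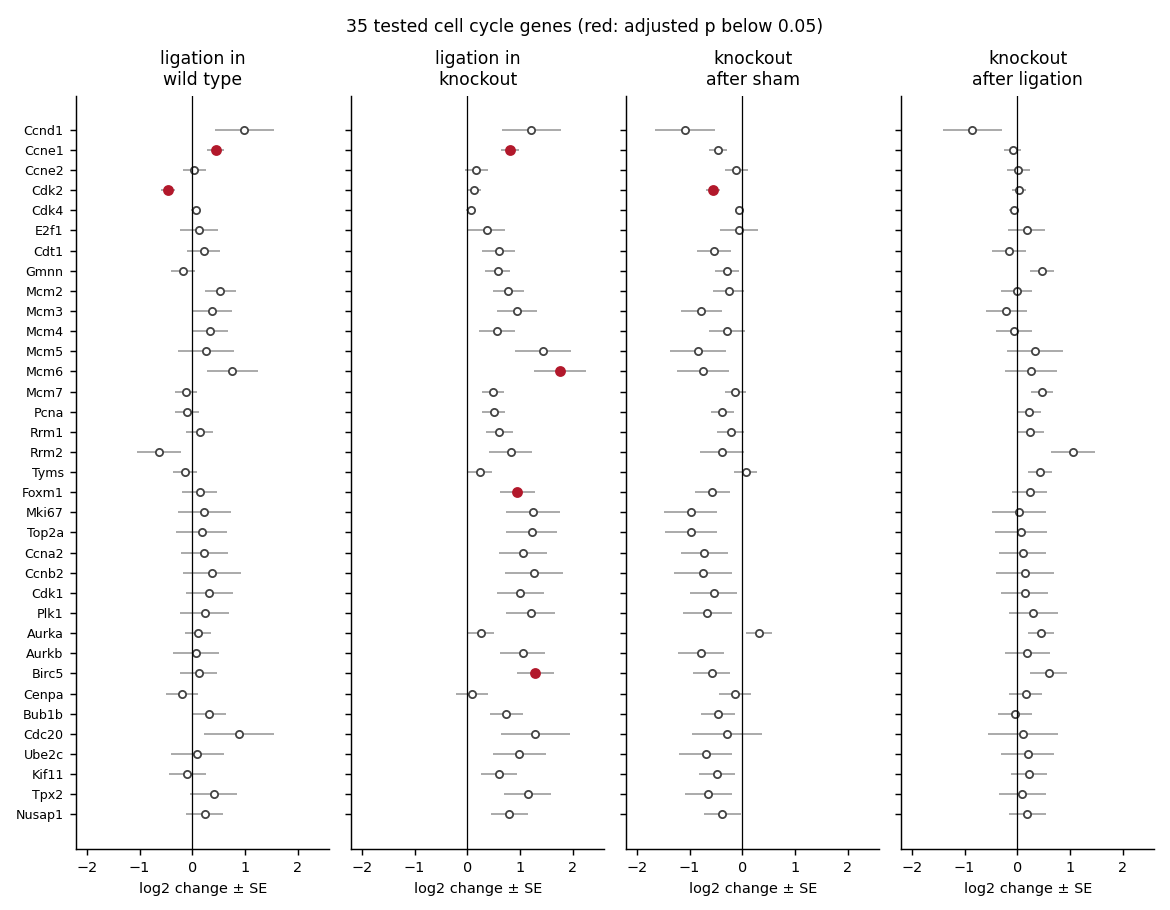
Change in mean log2(FPKM + 0.5) with its SE for the 35 tested genes (vertical axis) in 4 comparisons, with genes of adjusted p below 0.05 filled in red. Nearly all changes lie to the right of 0 for ligation in the knockout and to the left of 0 for the knockout after sham surgery, while the error bars of most genes are long.

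Between the knockout and wild type after ligation, 0 of 35 genes were called, where 8.83% of all tested genes were called, 3.46% higher and 5.37% lower. With voom, at an adjusted p under 0.05, 0 were called, where 1316 of 13951 genes were called. At an unadjusted limma p under 0.05, 2 genes (Mcm7 and Rrm2) were higher. The share of all tested genes at that unadjusted p is not given here. With only these 2 groups in the fit, again 0 were called, where 2.01% of all tested genes were called, 0.398% higher and 1.61% lower. No gene had groups without overlap, where 2.17% of all tested genes had every knockout library above and 3.33% every one below. Mean FPKM was higher in BDL_KO for 36 of 39 genes. The median log2 change was 0.16, and its sign was not stable: it was -0.05 with a pseudocount of 0.1, -0.15 as TPM, where that of all tested genes was -0.25, and -0.04 with voom. Mki67, for example, had a mean of 2.52 ± 2.82 FPKM in BDL_KO and 1.39 ± 0.349 in BDL_Wt (SD, n = 5 each) and a log2 change of 0.04 ± 0.51 (SE, limma adjusted p = 0.977). Without libraries BDL_KO_2359 and BDL_KO_2248, 18 of 35 were called, all higher, where 6.6% of all tested genes were called, 3.24% higher and 3.36% lower. Here too the 2 libraries left out were the low ones.

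The response to ligation was compared between genotypes by the interaction. It was called for 0 of 35 genes, where 0.377% of all tested genes were called. With voom, at an adjusted p under 0.05, 0 were called, where 22 of 13951 genes were called. At an unadjusted limma p under 0.05, 4 genes (Cdk2, Rrm2, Gmnn and Birc5) had a higher response in the knockout. Here too the share of all tested genes at that unadjusted p is not given. The median interaction was 0.60 for the 35 genes and -0.00285 for all tested genes, and it was above 0 for 34 of 35. Both a lower start in Sham_KO and higher values in 3 BDL_KO libraries enter this difference. Without libraries BDL_KO_2359 and BDL_KO_2248, 16 genes were called, all higher, where 1.27% of all tested genes were called, 0.804% higher and 0.462% lower. The 2 libraries left out were the low ones for nearly all of the genes, so leaving them out raises the interaction by construction.

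Rescaling changed the balance of all tested genes, and the values are given here once. As TPM, the median of all tested genes moved to 0.27 for ligation in wild type, 0.15 for ligation in the knockout, -0.12 for the knockout after sham and -0.25 for the knockout after ligation. Of all genes called, the share called higher was 50.77, 48.81, 44.02 and 39.16% with the deposited FPKM, 81.96, 75.93, 9.524 and 6.735% as TPM, and 71.01, 57.55, 24.06 and 11.48% when scaled to total fragments, in the same order. The medians of the 35 genes as TPM were 0.49, 1.14, -0.77 and -0.15.

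Ccnd1, the D-type cyclin that growth signals induce in hepatocytes, varied widely in the sham livers as well. It measured 3.33, 2.69, 11.4, 11.4 and 16.7 FPKM in Sham_Wt and 1.67, 1.78, 2.29, 7.45 and 5.88 in Sham_KO. In each genotype the libraries with Y-linked transcripts were the low ones, 2 in Sham_Wt and 3 in Sham_KO. Over the 10 sham libraries, with genotype in the model, the log2 difference of libraries with against those without Y-linked transcripts was -1.76 ± 0.14 (SE), with a limma adjusted p of 5.999e-05. In this comparison, added after the data were seen, 2 of 35 genes were called (Ccnd1, and Mcm6 with -0.47 and an adjusted p of 0.04568), where 4.67% of all tested genes were called. Within each set Sham_KO was below Sham_Wt.

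After ligation the split of Ccnd1 by Y-linked transcripts was seen in BDL_Wt and not in BDL_KO. It measured 10.6, 16.2, 12.6, 17.2 and 20.8 FPKM in BDL_Wt. There the 3 libraries with Y-linked transcripts, BDL_Wt_2233, BDL_Wt_2235 and BDL_Wt_2236, were again the low ones. In BDL_KO, Ccnd1 measured 3.58, 17.7, 2.68, 23.2 and 7.93 FPKM. The lowest were BDL_KO_2359, with Y-linked transcripts, and BDL_KO_2248, without them. Over the 10 ligated libraries the log2 difference by Y-linked transcripts was -0.27 ± 0.55 (SE, limma adjusted p = 1.0), and 0 of 35 genes were called, where 0.128% of all tested genes were called. Ligation changed Ccnd1 by 0.99 ± 0.56 in wild type and 1.22 ± 0.56 in the knockout (SE, limma adjusted p = 0.188 and 0.123).

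The other cell cycle genes were described from a list of 109 inhibitors, G1/S regulators, replication factors, checkpoint kinases and mitosis genes, of which 81 were tested. Of these, 6 rose and 6 fell after ligation in wild type, 18 rose and 4 fell after ligation in the knockout, 1 was higher and 1 lower in the sham knockout, and 1 was higher and 0 lower in the ligated knockout. Of all tested genes, 18.1% rose and 17.5% fell after ligation in wild type, 12.3% rose and 12.9% fell after ligation in the knockout, 1.31% were higher and 1.66% lower in the sham knockout, and 3.46% were higher and 5.37% lower in the ligated knockout. Among 32 other replication genes on this list, 0 rose and 2 fell after ligation in wild type, and 10 rose and 1 fell in the knockout. The interaction was called for 3 of the 81 genes, 2 higher and 1 lower, and 1 of them was among these 32. Of all tested genes, 0.377% were called for the interaction, 0.156% higher and 0.22% lower.

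Cdkn1a, which encodes the kinase inhibitor p21, measured 2.21, 2.43, 1.66, 3.29 and 2.99 FPKM in Sham_Wt and 10.0, 22.4, 17.3, 25.3 and 12.0 in Sham_KO, with no overlap. It rose by 2.51 ± 0.44 in the sham knockout (SE, limma adjusted p = 0.004993). After ligation it measured 30.7, 16.2, 39.3, 13.5 and 45.6 FPKM in BDL_Wt and 5.502, 22.3, 50.8, 19.5 and 14.45 in BDL_KO. It rose by 3.17 ± 0.44 in wild type (limma adjusted p = 2.63e-05) and changed by 0.12 ± 0.44 in the knockout (adjusted p = 0.872), and the interaction was -3.05 ± 0.62 (adjusted p = 0.03549). The interaction was no longer called in 19 of 35 alternatives (limma adjusted p from 0.00966 to 0.826 over them), among them the fits without any 1 of Sham_Wt, of Sham_KO other than Sham_KO_2347, of BDL_Wt_2233, BDL_Wt_2236 and BDL_Wt_2240, or of BDL_KO_2359 and BDL_KO_2371 (0.0549 to 0.0866). Its level was highest in BDL_KO_2248 and lowest in BDL_KO_2359 within BDL_KO, so the 2 libraries low in cell cycle genes lay at opposite ends.

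Lig1, the ligase of replicating DNA, measured 0.658, 0.633, 0.559, 1.10 and 0.875 FPKM in Sham_KO and 1.02, 3.56, 0.895, 4.59 and 9.39 in BDL_KO, the same order of libraries as Mcm6. It rose by 1.43 ± 0.37 (SE, limma adjusted p = 0.008918), and with only the 2 knockout groups in the fit its adjusted p was 0.076. Gins1, a subunit of the helicase complex at the fork, measured 1.94, 1.72, 1.48, 2.22 and 2.12 FPKM in BDL_Wt and 3.96, 2.95, 3.78, 2.46 and 4.38 in BDL_KO. It was 0.73 ± 0.13 higher in the ligated knockout (SE, limma adjusted p = 0.001585), with an interaction of 0.96 ± 0.18 (adjusted p = 0.0322). Cks1b, a small partner of the cyclin-dependent kinases, had an interaction of 1.19 ± 0.23 (SE, limma adjusted p = 0.03423), and measured 5.39, 4.98, 4.30, 4.33 and 5.45 FPKM in BDL_KO. Unlike for Lig1, BDL_KO_2359 and BDL_KO_2248 were not the 2 lowest BDL_KO libraries for Gins1 or for Cks1b. The interactions of Gins1 and Cks1b were no longer called in 17 and 19 of 35 alternatives. Among these, each was lost without Sham_Wt_2223, Sham_Wt_2224, Sham_Wt_2229, Sham_KO_2350, Sham_KO_2352, Sham_KO_2353, BDL_Wt_2233, BDL_KO_2359 or BDL_KO_2371, that of Gins1 also without Sham_Wt_2228 or BDL_Wt_2236, and that of Cks1b also without Sham_Wt_2227, Sham_KO_2349 or BDL_Wt_2240. With limma the adjusted p in these fits ran from 0.0518 to 0.0754 for Gins1 and from 0.0555 to 0.0721 for Cks1b.

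Wee1, the kinase that holds Cdk1 inactive before mitosis, rose after ligation, by 1.57 ± 0.30 in wild type and 1.41 ± 0.30 in the knockout (SE, limma adjusted p = 0.000522 and 0.002497). It measured 0.917, 1.10, 0.505, 0.629 and 0.687 FPKM in Sham_Wt and 2.94, 4.29, 2.14, 6.07 and 1.98 in BDL_Wt. E2f8, an atypical E2F repressor, fell by 1.49 ± 0.41 in wild type and by 1.63 ± 0.41 in the knockout (SE, limma adjusted p = 0.008135 and 0.007497). In the knockout its direction was opposite to that of most replication genes. Without BDL_KO_2359 and BDL_KO_2248 the adjusted p of E2f8 in the knockout was 0.0518.

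Mcm10, which loads DNA polymerase alpha at the fork, also fell after ligation. It measured 8.90, 11.6, 3.63, 3.74 and 3.73 FPKM in Sham_Wt, 11.7, 9.55, 13.2, 1.21 and 2.11 in Sham_KO, 0.849, 1.87, 1.17, 0.980 and 0.781 in BDL_Wt and 2.06, 1.64, 0.582, 0.627 and 1.99 in BDL_KO. The log2 change was -1.94 ± 0.51 in wild type and -1.77 ± 0.51 in the knockout (SE, limma adjusted p = 0.005734 and 0.01651). The call in the knockout was lost with only the 2 knockout groups in the fit (adjusted p = 0.075), with array weights (0.0506), with 1 weight per group (0.0654) and within the libraries without Y-linked transcripts, where the change was -0.55 (0.391). In sham livers the 5 libraries with Y-linked transcripts had the highest values, opposite to Ccnd1, and this gene did not follow the MCM helicase subunits.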

How the data were processed

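Poly(A) RNA of 20 total liver libraries, 5 in each of 4 groups taken from the labels, was measured by sequencing. The authors deposited FPKM per gene. The tools named, per the submitters' processing notes and without role or order, were HISAT2 2.0.5, featureCounts 1.5.0-p3, DESeq2 1.20.0, fastp and CASAVA 1.8, and the build was GRCm38 (mm10). The annotation release was not given in the sources used here. Multiplying FPKM by GENCODE M21 exonic lengths gave whole fragments for 98.13 to 98.51% of low values (tolerance 0.02), which gave the depth of 14940000 to 20900000 fragments per library.

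Values were tested as log2(FPKM + 0.5) with limma 3.58.1 in R 4.3.3, in 1 model of 4 group means with a robust trend, over the 14059 entries that reached 0.5 FPKM in 5 or more of the 20 libraries. A gene was called at a Benjamini-Hochberg adjusted p under 0.05. Contrasts were ligation within each genotype, genotype within each surgery, and the interaction. The fits were tested on simulated data in which each gene had the same spread in all 4 groups. Such data do not cover the wider spread of BDL_KO. Other steps used Python 3.11.15, pandas 2.3.3, numpy 2.4.6 and matplotlib 3.10.9.

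The members and the lists were chosen with earlier results of these data known. Called members were named with every library's value, and of the others the 2 with the highest mean FPKM per role, with Mki67 and Top2a. From the list of other cell cycle genes, up to 4 called genes with the largest change per comparison, and Cdkn1a, were named. Alternatives changed the pseudocount, filter, scaling, weights, groups and libraries in the fit. Fits with 1 weight per group, within libraries with or without Y-linked transcripts, and with voom on recovered fragments, and the contrast by Y-linked transcripts, were chosen after seeing the data. Marker lists were used as counts and sums. Neutrophil markers summed to 2.847 to 13.84 FPKM in Sham_Wt and 2.914 to 3.843 in Sham_KO. Of 8 endothelial markers tested, 4 were called lower after ligation in wild type and 3 in the knockout, and of 5 B and plasma cell markers 1 was higher and 1 lower in wild type and 2 were higher in the knockout.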

Additional observations from a re-analysis of the deposited data

Results flagged for a closer look

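In 5 of 156 groups of 5 libraries (39 genes in 4 groups), 1 library lay far from the others, with a gap to its neighbour, divided by the range of the group, above 0.71 on the scale of log2(FPKM + 0.5). Chance gives about 1 such group in 20. Mcm3 was 3.38 FPKM in BDL_Wt_2240, the highest of its group, with a gap of 0.821 of the range. Mcm4 was 1.18 FPKM in Sham_Wt_2224, the lowest of its group (0.733), and 1.89 FPKM in Sham_KO_2352, the highest (0.883). Aurka, a mitotic kinase, was 2.98 FPKM in Sham_KO_2353 (0.818), and Tpx2, its activator on the spindle, was 0.359 FPKM in the same library (0.72), both the highest of their group. No group of BDL_KO passed this limit.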

How the results depend on the processing

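Over 7468 log2 changes of single genes under the alternatives, 7153 kept their side of the threshold, 141 lost the call and 171 gained it. A further 3 were called with the opposite sign. Changes that were not called could switch sign and still count among the 7153. Between genotypes after ligation, 27 of the 35 cell cycle genes were above 0 in the main fit and 11 as TPM. Without BDL_KO_2359 and BDL_KO_2248, Mcm2, Mcm3 and Mcm4 reversed between genotypes after ligation, to 0.66, 0.68 and 0.70. The cause of the changes below was not tested, except that fits within libraries with or without Y-linked transcripts have fewer samples. Comparisons follow in the order ligation in wild type, ligation in the knockout, knockout after sham, knockout after ligation, interaction. Of all genes, 5011, 3534, 418, 1241 and 53 were called. With only the compared groups in the fit, 1694 were called for ligation in the knockout, 821 for the knockout after sham and 283 after ligation. With 1 weight per group, the last 4 comparisons gave 2222, 891, 776 and 34 genes. Libraries with Y-linked transcripts gave 3126, 1072, 0, 308 and 2 genes, and those without gave 911, 550, 7, 8 and 0. For the knockout after sham and the interaction, the counts were 208 and 9 without the filter, 210 and 7 as TPM, 187 and 21 scaled to total fragments, 1234 and 142 with array weights, and 1041 and 178 without BDL_KO_2359 and BDL_KO_2248. With voom the interaction gave 22 genes. With array weights, ligation in wild type gave 6950 genes, ligation in the knockout 4394 and the knockout after ligation 1088. Of the 35 cell cycle genes, ligation in wild type gave 1 with a pseudocount of 0.1, without the filter, with a filter at 1 FPKM, as TPM, scaled to total fragments, with a Y-linked covariate and within libraries with Y-linked transcripts, 9 with only 2 groups, 5 with array weights, 5 without BDL_KO_2359 and BDL_KO_2248, 4 with 1 weight per group and 0 within libraries without Y-linked transcripts. Ligation in the knockout gave 1 with a filter at 1 FPKM, 1 with only 2 groups, 27 with array weights, 31 without the 2 libraries, 2 with voom and 0 within either Y-linked set. The knockout after sham gave 0 without the filter, as TPM, scaled to total fragments and within either Y-linked set, 13 with only 2 groups, 2 with array weights and 6 without the 2 libraries. The knockout after ligation gave 4 with array weights and 18 without the 2 libraries, and the interaction 2 and 16. Leaving out 1 library at a time gave 4279 to 5466, 2614 to 4096, 155 to 659, 618 to 2061 and 8 to 151 genes, and 1 to 2, 3 to 24, 0 to 1, 0 to 0 and 0 to 0 cell cycle genes. The log2 difference of Tmem173 ran from -0.97 to -0.70 after sham and from -1.37 to -1.01 after ligation. No paired analysis was possible because the groups share no replicate numbers. Low genes rest on few fragments, such as 1 for Cdc20 in BDL_KO_2248.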
